A study of Mus musculus with 15 samples.

Results

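Genes of the proteasome were examined in 5 induced mouse erythroid lines. They were found by gene symbol, as every symbol on the array that begins with Psma to Psmg followed by a digit, leaving out pseudogenes. The rule gave 50 of the 19933 genes measured. Of these, 31 encode core subunits of the standard particle, 3 the catalytic subunits of the immunoproteasome, 7 assembly chaperones, and the others caps, an inhibitor and tissue-restricted subunits. The symbol rule also took in Psmc3ip, a recombination factor, and Psme3ip1, a binding partner of a cap protein, and neither is a proteasome subunit. No filter on low values was used, so every member was tested.

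All lines were G1E cells, immature erythroid cells that lack functional GATA1, each expressing GATA1 fused to an estrogen receptor domain (GATA1-ER). The 4 mutant lines carry R216Q, R216W, D218G and D218Y in the N-terminal zinc finger of this factor, and the fifth line carries the wild-type protein (WT). Every culture, WT included, had received 100 nM estradiol for 24 hours, so untreated cells are not analysed here. There were 3 biological replicates per line on Affymetrix arrays, 15 arrays in all, and the labels do not say how many clones or pools stand behind a line, so line and mutation cannot be told apart.

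The proteasome is the cell's main machine for degrading proteins tagged with ubiquitin. Its 20S barrel is built of alpha rings, which gate entry, and beta rings, which hold the catalytic sites, and a 19S cap made of an ATPase ring and non-ATPase subunits binds, deubiquitinates and unfolds the substrate. Dedicated chaperones assemble both parts, and other caps or an exchange of catalytic subunits give alternative forms. Red cell precursors rely on it while they remodel their protein content, and reticulocyte extracts were the source from which the ubiquitin system was first worked out.

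The values were log2 RMA values between 2.89 and 13.58. Of the 8 erythroid precursor markers checked, 8 read above the median gene, against 0 of 3 granulocyte, 0 of 3 lymphoid, 0 of 3 mast cell, 1 of 4 macrophage and monocyte, 2 of 3 megakaryocyte and 2 of 3 stroma markers. In D218Y the late erythroid marker Slc4a1 averaged 6.81, against 12.41 in WT, 11.35 in R216Q, 12.29 in R216W and 11.3 in D218G. Kit, also of the erythroid precursor markers, went the other way, with 11.54 in D218Y against 9.51 in WT. Its means were 10.96 in R216Q, 10.35 in R216W and 10.06 in D218G. The mast cell marker Cpa3 averaged 5.91 in D218Y, against 5.26 in WT. The other mast cell markers were not higher in D218Y, with Fcer1a at 4.06 in both lines and Mcpt4 at 4.29, against 4.46 in WT. The part of such differences in the results below was not tested. Replicate 3 of D218G stood apart from its line, with an array median of 6.245, against 6.37 and 6.40 for replicates 1 and 2. In bulk RNA, a change per cell and a change in the mix of cells cannot be told apart.

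Core subunit genes were slightly higher in the D218Y line than in WT, and the core medians of the other lines lay closer to WT. In D218Y 17 of the 31 core genes rose and 2 fell (54.8% and 6.45%), where 20.3% of all genes were called higher and 24.2% lower at an adjusted p under 0.05. All 31 core genes were among the 4984 genes with the highest mean value, called bright genes here, where calls are more frequent. Of the bright genes, 39% were called higher and 35.5% lower in D218Y. The median core difference was 0.11 (log2), against -0.07 over all genes and 0.02 over the bright genes.

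In R216Q 7 core genes rose and none fell, or 22.6%, against 11.8% of all genes and 26.2% of the bright genes called higher. In D218G 6 rose and none fell, or 19.4%, against 10.3% of all genes and 21.4% of the bright genes. The share that rose in these lines was thus near that of genes of like signal, while the shares of bright genes called lower were 24.4% in R216Q and 19.9% in D218G. Over all genes 9.65% were called lower in R216Q and 7.77% in D218G. In R216W 4 core genes rose and 2 fell, or 12.9% and 6.45%, against 9.36% and 7.23% of all genes and 19.8% and 18.6% of the bright genes. Over all 50 members, 8 rose and 5 fell in R216Q, where 21.5% of all genes were called in either direction, and the arrays of 23 members did not overlap WT, where 31.7% of all genes did not. In R216W 6 members rose and 5 fell (16.6% of all genes called), a balance that turned to 2 and 4 without WT replicate 1, and 19 did not overlap (30.1% of all genes). Without R216W replicate 3 the calls of Psma2, Psma7, Psmd7 and Psmd12, all of them rises, were lost as well. In D218G 11 rose and 1 fell (18.1% of all genes) and 26 did not overlap (26.4% of all genes). In D218Y 25 rose and 8 fell (44.4% of all genes) and 36 did not overlap (55.9% of all genes). Of the 50 members 41 were bright genes, where calls are more frequent. The share of bright genes without overlap was not computed for any comparison. The counts without overlap are therefore not read as a result about the members. In D218Y 50% of the members rose and 16% fell, against 39% and 35.5% of the bright genes. The shares were 16% and 10% in R216Q, 12% and 10% in R216W, and 22% and 2% in D218G. The bright shares for these lines are given above. All of these comparisons share the WT arrays.

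**Figure D1:**
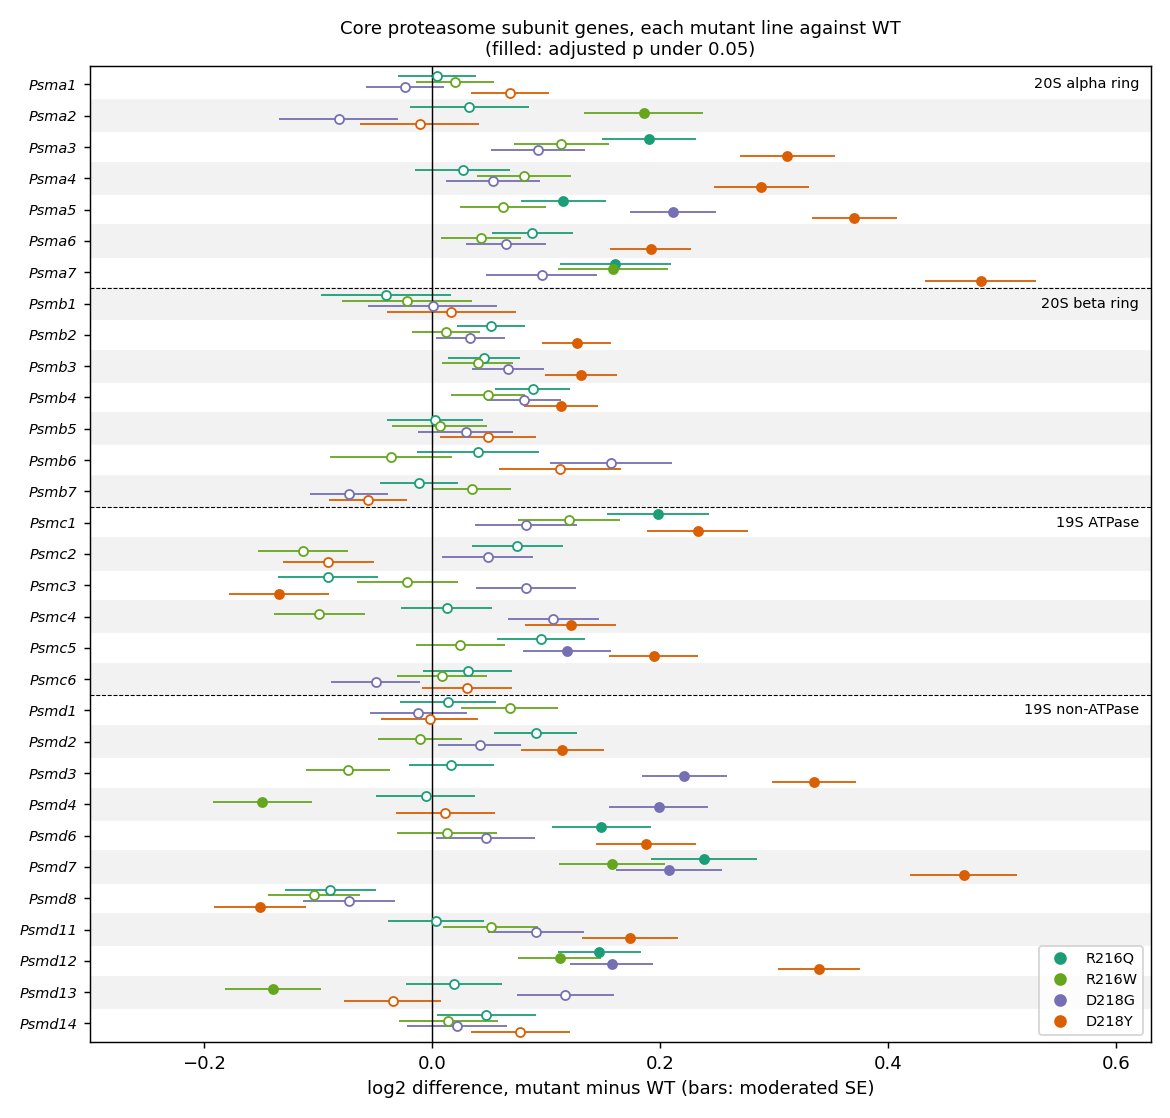
Log2 difference from WT (horizontal axis) of the 31 core subunit genes (rows, grouped by role) in the 4 mutant lines, with moderated standard errors as bars; filled points passed an adjusted p under 0.05. The D218Y points reach 0.48 for Psma7 and 0.47 for Psmd7.

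The mean of the 31 core genes on an array ranged from 11.07 to 11.08 on the D218Y arrays, from 10.99 to 11.01 on the R216Q arrays, from 10.95 to 10.98 on the R216W arrays, from 11.00 to 11.04 on the D218G arrays and from 10.92 to 10.96 on the WT arrays. The D218Y arrays stood above all others, and replicate 3 of D218G came next at 11.04. These were also the 4 arrays with the lowest array medians, between 6.24 and 6.29. After quantile normalization the core median in D218Y was 0.12 with 17 higher and 3 lower, and after cyclic loess 0.11 with 16 and 3. Without replicate 3 of D218G, 5 core genes rose and 1 fell in that line.

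**Figure D2:**
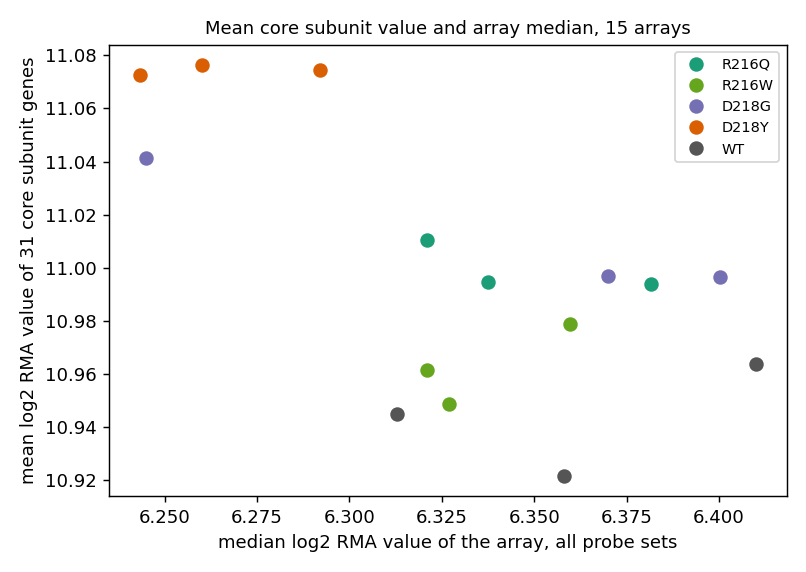
Mean log2 value of the 31 core subunit genes (vertical axis) against the median of all probe sets (horizontal axis), 1 point per array, coloured by line. The 3 D218Y arrays and replicate 3 of D218G combine the highest core means with the lowest array medians, and the WT arrays have core means between 10.92 and 10.96.

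In the alpha ring of the 20S barrel 5 of 7 genes outside Psma8 rose in D218Y, namely Psma7 (0.48 ± 0.05, SE, adjusted p = 8.85e-07), Psma5 (0.37 ± 0.04), Psma3 (0.31 ± 0.04), Psma4 (0.29 ± 0.04) and Psma6 (0.19 ± 0.04). Psma7 read 10.12, 10.02 and 10.02 in D218Y, against 9.55, 9.54 and 9.63 in WT, so the groups did not overlap. In the other lines Psma7 averaged 9.74 ± 0.03 in R216Q, 9.74 ± 0.09 in R216W and 9.67 ± 0.03 in D218G (SD, n = 3 each). It also rose in R216Q (0.16 ± 0.05, adjusted p = 0.0265) and in R216W (0.16 ± 0.05, adjusted p = 0.0366), and both calls were lost without replicate 1 or 2 of WT, among other single arrays (adjusted p from 0.0776 to 0.095 in R216Q and from 0.1065 to 0.1763 in R216W). Psma2 was at -0.01 ± 0.05 in D218Y and Psma1 at 0.07 ± 0.03, and neither passed. Psma3 had 3 probe sets, whose differences in D218Y lay between 0.31 and 0.32. Psma3 (0.19 ± 0.04, adjusted p = 0.0032) and Psma5 (0.12 ± 0.04, adjusted p = 0.0408) rose in R216Q as well, and the call of Psma5 was lost whichever of the 6 arrays was left out (adjusted p from 0.0629 to 0.1231). In D218G Psma5 rose by 0.21 ± 0.04 (adjusted p = 8.58e-04).

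The beta ring changed less. Psmb2 (0.13 ± 0.03), Psmb3 (0.13 ± 0.03) and Psmb4 (0.11 ± 0.03), which are structural beta subunits without catalytic sites, rose in D218Y, and no beta ring gene passed in R216Q, R216W or D218G. The genes of the catalytic subunits moved little. Psmb5, the chymotrypsin-like site and the target of bortezomib, read 11.79, 11.85 and 11.82 in D218Y, against 11.77, 11.72 and 11.83 in WT, a difference of 0.05 with a 95% interval from -0.04 to 0.14. Psmb6, the caspase-like site, was at 0.11 (interval -0.0026 to 0.23, adjusted p = 0.1022) and Psmb7, the trypsin-like site, at -0.06 (interval -0.13 to 0.02) in D218Y. In D218G Psmb6 was at 0.16 ± 0.05 and its arrays did not overlap WT, but it did not pass (adjusted p = 0.0581). In R216Q and R216W the 3 genes lay between -0.04 and 0.04.

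Genes of the 19S cap went both ways, with the largest rises among lid subunits. Psmd7, a lid subunit that pairs with the deubiquitinase Psmd14, read 11.31, 11.29 and 11.27 in D218Y, against 10.79, 10.87 and 10.81 in WT. In D218Y it rose by 0.47 ± 0.05 (adjusted p = 8.18e-07), and it also rose in R216Q (0.24 ± 0.05), D218G (0.21 ± 0.05) and R216W (0.16 ± 0.05, adjusted p = 0.0308). Psmd12, a lid scaffold subunit, rose in D218Y (0.34 ± 0.04), D218G (0.16 ± 0.04), R216Q (0.15 ± 0.04) and R216W (0.11 ± 0.04, adjusted p = 0.0494). The D218G call of Psmd12 was lost when the arrays of D218G and WT alone were fitted (adjusted p = 0.0873). The R216W calls of Psmd7 and Psmd12 were lost in the fits without WT replicate 1 or 3, among others (adjusted p up to 0.1316 for Psmd7 and up to 0.1779 for Psmd12). Psmd14 itself was at 0.08 ± 0.04 in D218Y and did not pass.

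Psmd3, another lid subunit, rose in D218Y (0.33 ± 0.04) and D218G (0.22 ± 0.04) and was at 0.02 ± 0.04 in R216Q and -0.07 ± 0.04 in R216W. Psmd4, which binds ubiquitin chains, rose in D218G (0.20 ± 0.04, adjusted p = 0.0042) and fell in R216W (-0.15 ± 0.04, adjusted p = 0.0283), and was at 0.01 ± 0.04 in D218Y. Psmd13 fell in R216W as well (-0.14 ± 0.04, adjusted p = 0.0352). In R216W the calls of Psmd4, Psmd13 and Psma2 (0.19 ± 0.05) were each lost without WT replicate 2 or R216W replicate 2, among others (adjusted p from 0.0627 to 0.1769). The 19S genes that fell in D218Y were Psmd8 (-0.15 ± 0.04) and the ATPase Psmc3 (-0.13 ± 0.04, lost without WT replicate 3 or D218Y replicate 1 or 3, adjusted p from 0.0565 to 0.1175). Of the ATPase genes, Psmc1 (0.23 ± 0.04), Psmc5 (0.19 ± 0.04) and Psmc4 (0.12 ± 0.04) rose in D218Y, and Psmc1 rose in R216Q (0.20 ± 0.04). The call of Psmc4 did not hold without WT replicate 1 or 2, or D218Y replicate 1 or 2 (adjusted p from 0.0504 to 0.0891). Psmd6 (0.19 ± 0.04), Psmd11 (0.17 ± 0.04) and Psmd2 (0.11 ± 0.04) were the other non-ATPase genes that rose in D218Y, and the second probe set of Psmd2, at 0.05, did not pass (adjusted p = 0.1811). The call of Psmd2 was also lost without WT replicate 1 or D218Y replicate 1 or 2 (adjusted p from 0.0514 to 0.0711). Psmd6 rose in R216Q (0.15 ± 0.04, adjusted p = 0.0231), a call lost without any single array of these lines other than WT replicate 2 (adjusted p up to 0.1024), and Psmc5 rose in D218G (0.12 ± 0.04, adjusted p = 0.0482), a call lost without replicate 2 or 3 of D218G or replicate 1 or 2 of WT (adjusted p up to 0.1762).

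Between lines changed at the same residue, core genes differed as well. In D218Y against D218G 11 core genes were higher and 4 lower (35.5% and 12.9%, against 17.4% and 15.6% of all genes and 33.9% and 31.4% of the bright genes). The higher genes included Psma7 (0.39 ± 0.05) and Psmd7 (0.26 ± 0.05), and the lower ones were Psmc3 (-0.22 ± 0.04), Psmd4 (-0.19 ± 0.04), Psmd13 (-0.15 ± 0.04) and Psmc2 (-0.14 ± 0.04). Without replicate 3 of D218G the count was 15 higher and 4 lower, and the calls of Psma6, Psmb2, Psmc1, Psmd3 and Psmd6 were each lost without another single array, such as D218Y replicate 3 (adjusted p up to 0.11). Over all members 18 were higher and 9 lower (33% of all genes called) and 35 did not overlap (40.4% of all genes). These 36% and 18% of the members compare with 33.9% and 31.4% of the bright genes. In R216W against R216Q no core gene was higher and 4 were lower (12.9%), all of the 19S cap, where 8.25% of all genes were called higher and 8.65% lower, and 19.6% and 21% of the bright genes. They were Psmc2 (-0.19 ± 0.04, adjusted p = 0.0035), Psmd13 (-0.16 ± 0.04), Psmd6 (-0.14 ± 0.04) and Psmd4 (-0.14 ± 0.04), and the last 3 calls were lost without R216Q replicate 1 or 2, among others (adjusted p from 0.0505 to 0.1703). Over all members 2 were higher and 8 lower (16.9% of all genes called) and 20 did not overlap (30.8% of all genes). These 4% and 16% of the members compare with 19.6% and 21% of the bright genes.

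The assembly chaperone genes held the largest rises of all members in D218Y. Psmg1 and Psmg2 form a dimer that holds the growing alpha ring, Psmg3 and Psmg4 form the second such dimer, and Psmd5, Psmd9 and Psmd10 escort ATPase subunits into the 19S base. In D218Y 4 of the 7 rose and 2 fell (57.1% and 28.6%, against 20.3% and 24.2% of all genes), and in D218G 4 rose (57.1%, against 10.3% of all genes). In R216Q and R216W 1 rose and 1 fell (14.3% each way, against 11.8% and 9.65% of all genes in R216Q and 9.36% and 7.23% in R216W). Of the bright genes, 39% were called higher and 35.5% lower in D218Y, and 21.4% and 19.9% in D218G. In R216Q 26.2% and 24.4% of the bright genes were, and in R216W 19.8% and 18.6%. Of the 7 genes, 4 were among the bright genes. Because these genes had the largest F statistics among the chaperones, the 250 bases before the annotated start are given for Psmg1, at chr16:95990961-95991210 (minus strand), and Psmd9, at chr5:123227940-123228189 (plus strand), from RefSeq (GRCm38.p6), 5′ to 3′ on the gene's strand. Capitals mark matches on either strand to 4 short motifs, and none of the matches marked overlap. The first motif is TGANNNNGC, the core of the antioxidant response element, which Nfe2l1, a controller of proteasome genes, binds. The second is the promoter box CCAAT. The third is the E-box CACGTG. The fourth is the GATA factor core GATAA.
Psmg1: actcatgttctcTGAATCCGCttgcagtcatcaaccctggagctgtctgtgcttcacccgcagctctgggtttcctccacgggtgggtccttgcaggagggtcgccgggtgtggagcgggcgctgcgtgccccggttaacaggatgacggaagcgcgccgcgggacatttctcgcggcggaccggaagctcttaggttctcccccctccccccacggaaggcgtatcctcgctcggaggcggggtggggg
Psmd9: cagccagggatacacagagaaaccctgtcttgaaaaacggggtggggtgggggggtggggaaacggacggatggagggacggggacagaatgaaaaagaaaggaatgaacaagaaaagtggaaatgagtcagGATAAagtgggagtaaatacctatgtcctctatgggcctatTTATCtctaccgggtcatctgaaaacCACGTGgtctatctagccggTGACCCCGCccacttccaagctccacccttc
In these windows the first motif was found once before each gene. Before Psmd9 the GATA core was found in 2 places, once on each strand, and the E-box once.

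Among all 32851 promoter windows of this length, 35.2% held the first motif, 33.8% the promoter box, 6.02% the E-box and 22.6% the GATA core. Of the 25 core genes with a window in the table, 8 held the first motif (32%), 10 the promoter box (40%), 1 the E-box (4%) and 5 the GATA core (20%). A match is a run of letters, not a binding site.

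Psmg1 was higher than WT in each mutant line. Its values were 9.57, 9.57 and 9.62 in R216Q, 9.30, 9.37 and 9.38 in R216W, 9.43, 9.47 and 9.58 in D218G, and 9.97, 9.98 and 10.01 in D218Y, against 9.13, 9.11 and 9.18 in WT. No mutant array overlapped the WT arrays, and the D218Y arrays stood above all others. The log2 difference was 0.84 ± 0.04 in D218Y (79.1% higher, adjusted p = 3.84e-10), 0.44 ± 0.04 in R216Q, 0.35 ± 0.04 in D218G and 0.21 ± 0.04 in R216W (adjusted p = 0.0028). Psmg1 was lower in R216W than in R216Q (-0.24 ± 0.04, adjusted p = 9.07e-04) and higher in D218Y than in D218G (0.49 ± 0.04, adjusted p = 2.73e-07). Its dimer partner gene Psmg2 did not pass in any comparison, with differences from WT between -0.06 and 0.07 and an interval from -0.14 to 0.06 in D218Y.

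Psmg3 and Psmg4 rose in the D218 lines. Psmg3 read 8.27, 8.18 and 7.99 in D218Y and 7.73, 7.89 and 7.83 in D218G, against 7.48, 7.48 and 7.37 in WT, differences of 0.70 ± 0.08 (adjusted p = 5.07e-06) and 0.37 ± 0.08 (adjusted p = 0.0049). In R216Q Psmg3 was at 0.20 ± 0.08 and in R216W at -0.17 ± 0.08, neither of which passed, while R216W was lower than R216Q (-0.36 ± 0.08, adjusted p = 0.0061). Psmg4 rose in D218Y (0.42 ± 0.06, adjusted p = 6.57e-05) and in D218G (0.25 ± 0.06, adjusted p = 0.0141), and was at 0.04 ± 0.06 and -0.02 ± 0.06 in R216Q and R216W. The D218G call of Psmg4 was lost without replicate 3 of D218G or replicate 2 of WT (adjusted p from 0.0589 to 0.0687). Psmg3 in D218Y against D218G was at 0.33 ± 0.08 (adjusted p = 0.0061), a call lost under quantile normalization (adjusted p = 0.0809).

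The ATPase chaperones did not move together. Psmd5 rose in D218Y (0.32 ± 0.03, adjusted p = 1.45e-06) and D218G (0.18 ± 0.03, adjusted p = 0.0017), with an interval from -0.07 to 0.08 in R216Q and from -0.06 to 0.09 in R216W. Psmd9 fell in R216W, D218Y and R216Q, with values of 8.76, 8.81 and 8.87 in R216W, 8.88, 8.83 and 8.82 in D218Y and 8.98, 9.05 and 9.03 in R216Q, against 9.31, 9.20 and 9.27 in WT. The D218G arrays, at 9.23, 9.25 and 9.25, lay within the WT range. The differences of Psmd9 were -0.45 ± 0.04 in R216W (on the linear scale it fell by 26.6%, adjusted p = 1.47e-06), -0.42 ± 0.04 in D218Y and -0.24 ± 0.04 in R216Q, and -0.01 in D218G with an interval from -0.10 to 0.07. Psmd10, also known as gankyrin, fell in D218Y (-0.33 ± 0.04, adjusted p = 1.75e-05) and was at -0.13 ± 0.04 in R216Q (adjusted p = 0.0583).

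**Figure D3:**
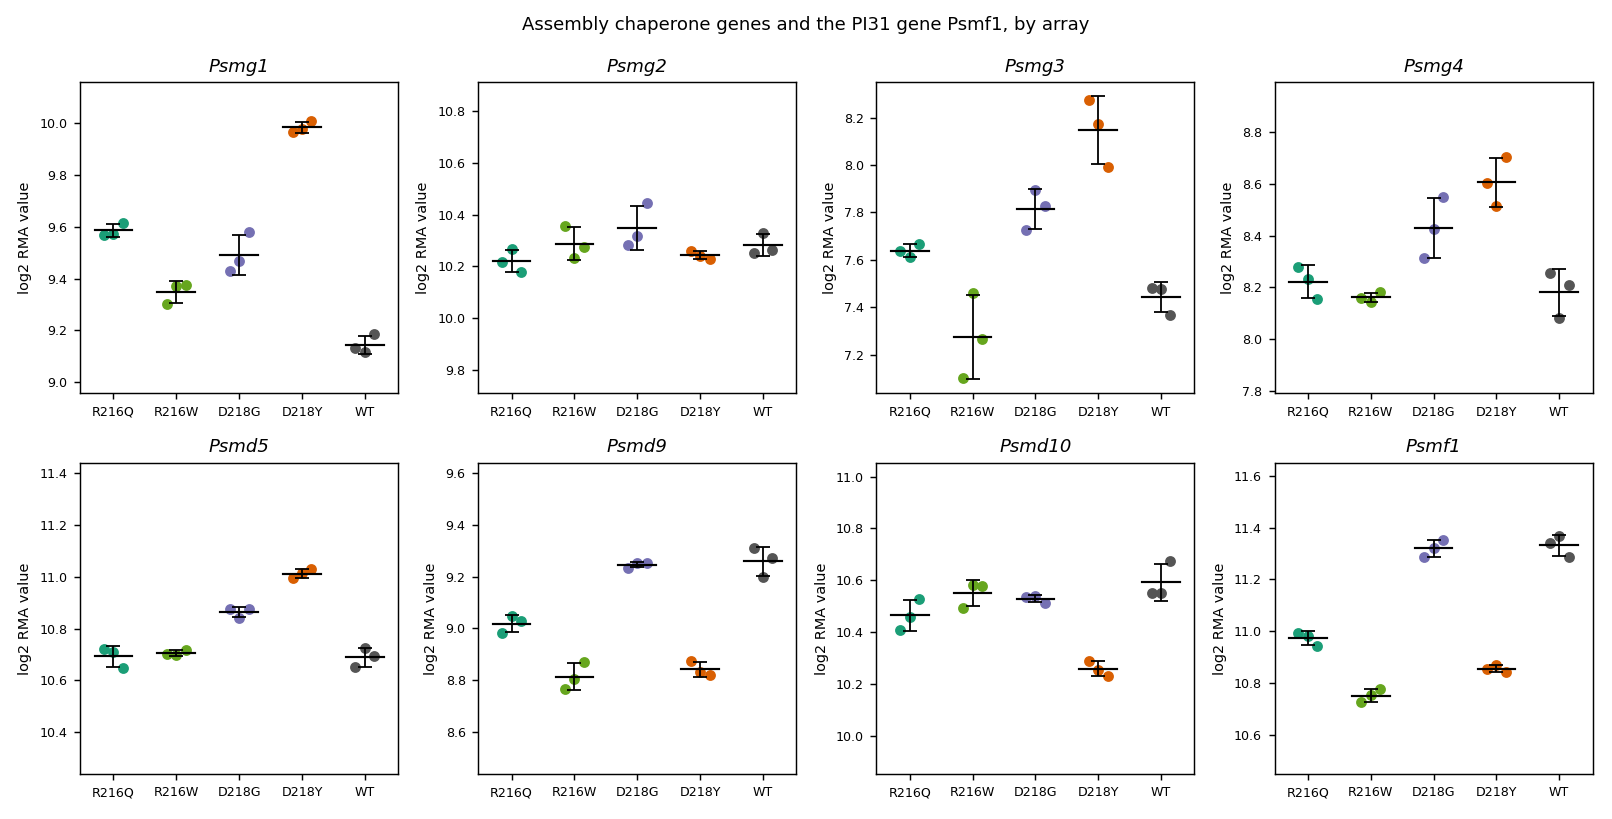
Log2 RMA values of the 7 assembly chaperone genes and of Psmf1 on each array (points), by line, with mean and SD in black; each vertical axis spans its own range of log2 values and does not start at 0. Psmg1 is above WT in each mutant line and highest in D218Y, whereas Psmd9 and Psmf1 are lower in R216Q, R216W and D218Y and lie near WT in D218G.

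The gene of the proteasome inhibitor, Psmf1, fell in R216Q, R216W and D218Y, and of the 4 cap genes Psme1 and Psme4 fell in 3 lines each while Psme2 and Psme3 fell in none. Psmf1 encodes PI31, named for its inhibition of purified 20S particles, and Psme4 encodes PA200, a cap that needs no ATP. Psme1 and Psme2 encode the alpha and beta chains of the PA28 cap, which serves antigen processing and is induced by interferon, and Psme3 encodes the nuclear PA28 gamma cap. The windows before these genes, shown for the members with the largest F statistics and for Psme2 as the partner of Psme1, are at chr2:151741311-151741560 (minus strand), chr11:30771525-30771774 (plus strand), chr14:55578244-55578493 (plus strand) and chr14:55591102-55591351 (minus strand), with capitals as above.
Psmf1: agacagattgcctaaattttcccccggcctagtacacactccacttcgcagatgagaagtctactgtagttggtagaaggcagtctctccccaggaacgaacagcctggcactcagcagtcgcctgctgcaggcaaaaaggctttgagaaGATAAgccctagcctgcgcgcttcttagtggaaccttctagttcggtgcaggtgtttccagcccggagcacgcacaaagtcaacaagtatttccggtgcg
Psme4: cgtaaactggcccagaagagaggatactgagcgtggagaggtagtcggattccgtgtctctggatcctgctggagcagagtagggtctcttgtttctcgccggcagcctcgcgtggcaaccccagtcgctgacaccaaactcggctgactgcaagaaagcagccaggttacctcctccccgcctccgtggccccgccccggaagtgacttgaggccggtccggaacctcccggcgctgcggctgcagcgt
Psme1: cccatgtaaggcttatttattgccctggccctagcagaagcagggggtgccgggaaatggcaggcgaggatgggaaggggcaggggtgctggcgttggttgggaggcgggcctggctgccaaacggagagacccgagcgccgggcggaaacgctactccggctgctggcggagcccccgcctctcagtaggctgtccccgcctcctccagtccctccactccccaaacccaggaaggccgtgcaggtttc
Psme2: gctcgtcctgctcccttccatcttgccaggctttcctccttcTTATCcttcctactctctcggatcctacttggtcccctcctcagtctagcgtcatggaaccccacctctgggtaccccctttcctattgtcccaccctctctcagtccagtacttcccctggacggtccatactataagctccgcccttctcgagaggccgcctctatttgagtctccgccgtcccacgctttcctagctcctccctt
The GATA core was found once before Psmf1 and once, on the other strand, before Psme2, and none of the 4 motifs was found before Psme4 or Psme1. The start used for Psmf1 did not match the start of its RefSeq gene record, whereas those of Psme4, Psme1 and Psme2 did.

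Psmf1 was lower than WT in R216Q, R216W and D218Y. It read 10.99, 10.98 and 10.94 in R216Q, 10.73, 10.75 and 10.78 in R216W, 11.29, 11.32 and 11.35 in D218G, and 10.85, 10.87 and 10.84 in D218Y, against 11.34, 11.37 and 11.29 in WT. The D218G arrays overlapped the WT arrays and the other lines did not. The log2 difference was -0.58 ± 0.03 in R216W (on the linear scale it fell by 33.1%, adjusted p = 2.16e-08), -0.48 ± 0.03 in D218Y (adjusted p = 2.47e-08) and -0.36 ± 0.03 in R216Q (adjusted p = 2.30e-06), and -0.01 in D218G with an interval from -0.09 to 0.06. Psmf1 was lower in R216W than in R216Q (-0.22 ± 0.03, adjusted p = 3.04e-04) and lower in D218Y than in D218G (-0.46 ± 0.03, adjusted p = 6.61e-08).

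Psme4 was lowest in D218Y. It read 10.93, 10.88 and 10.93 in D218Y, 11.36, 11.35 and 11.36 in R216Q, 11.39, 11.42 and 11.39 in R216W and 11.51, 11.47 and 11.57 in D218G, against 11.58, 11.59 and 11.56 in WT. Psme4 fell by 0.66 ± 0.03 in D218Y (on the linear scale it fell by 36.9%, adjusted p = 5.77e-10), by 0.22 ± 0.03 in R216Q and by 0.18 ± 0.03 in R216W, and was at -0.06 ± 0.03 in D218G (adjusted p = 0.3206). Against D218G the difference in D218Y was -0.60 ± 0.03 (adjusted p = 3.63e-09), whereas R216W and R216Q differed by 0.04 ± 0.03 (adjusted p = 0.562). Psme3 rose in D218Y (0.27 ± 0.03, adjusted p = 1.21e-05) and lay between 0.02 and 0.04 in the other lines, where it did not pass.

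**Figure D4:**
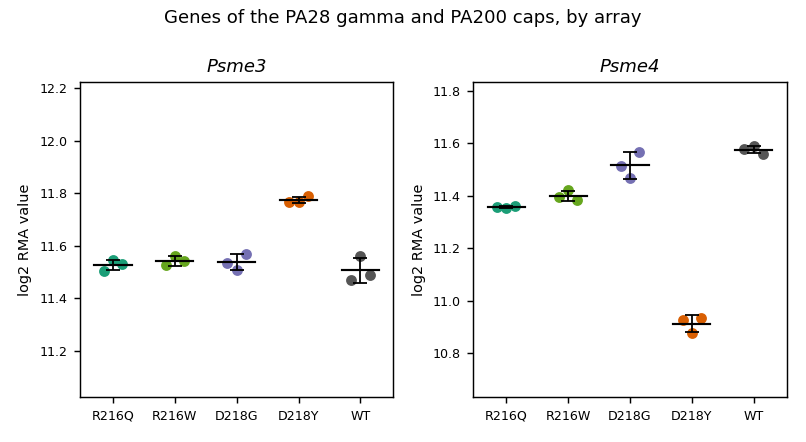
Log2 RMA values of Psme3 (PA28 gamma) and Psme4 (PA200) on each array (points), by line, with mean and SD in black; the vertical axes do not start at 0. Psme3 is highest and Psme4 lowest on the D218Y arrays.

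The genes of the PA28 alpha and beta chains, which work as a mixed ring, moved apart. Psme1 read 10.49, 10.45 and 10.45 in R216Q, 10.96, 10.97 and 11.00 in R216W, 10.56, 10.61 and 10.55 in D218G, and 10.54, 10.53 and 10.44 in D218Y, against 10.88, 10.83 and 10.92 in WT. It fell in R216Q (-0.41 ± 0.04, adjusted p = 1.42e-06), D218Y (-0.37 ± 0.04) and D218G (-0.30 ± 0.04), and was at 0.10 ± 0.04 in R216W (adjusted p = 0.0889). In R216W Psme1 was 0.51 ± 0.04 above R216Q (42.8% higher, adjusted p = 2.00e-07), the largest rise of a member in that comparison.

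Psme2 read 10.72, 10.77 and 10.70 in R216Q, 10.86, 10.94 and 10.99 in R216W, 10.88, 10.74 and 10.92 in D218G, and 10.95, 11.02 and 10.95 in D218Y, against 10.65, 10.66 and 10.79 in WT. It rose in D218Y (0.28 ± 0.05, adjusted p = 7.00e-04) and R216W (0.23 ± 0.05, adjusted p = 0.0078), and was at 0.15 ± 0.05 in D218G and 0.03 ± 0.05 in R216Q. So in D218Y Psme1 fell and Psme2 rose, while in R216W against R216Q both were higher. The R216W call against R216Q for Psme2 (0.20 ± 0.05, adjusted p = 0.0197) was lost without R216Q replicate 1 or 3 or R216W replicate 2 or 3 (adjusted p from 0.0613 to 0.0958). A further probe set that lists both Psme2 and the near-identical Psme2b was left out, and cross-hybridisation between these copies was not tested.

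Immunoproteasome subunits replace the standard catalytic subunits in immune cells and under interferon, Psmb8 for Psmb5, Psmb9 for Psmb6 and Psmb10 for Psmb7. Psmb10 read 8.67, 8.73 and 8.71 in D218Y, 8.34, 8.29 and 8.41 in D218G, 8.01, 8.01 and 7.89 in R216Q, and 7.96, 7.93 and 8.15 in R216W, against 8.19, 8.14 and 8.22 in WT. It rose in D218Y (0.52 ± 0.06, 43.5% higher, adjusted p = 1.97e-06) and fell in R216Q (-0.21 ± 0.06, adjusted p = 0.0126), a call lost without WT replicate 3 or R216Q replicate 3 (adjusted p from 0.0517 to 0.0665). Psmb10 in R216W was at -0.17 ± 0.06 (adjusted p = 0.0552) and in D218G at 0.17 ± 0.06 (adjusted p = 0.059), and D218Y was above D218G (0.36 ± 0.06, adjusted p = 1.43e-04). Psmb8, whose values lay between 5.46 and 5.70 near the low end of the array range, was at -0.16 ± 0.04 in D218Y (adjusted p = 0.008), a call that did not hold after quantile normalization or cyclic loess (adjusted p from 0.3108 to 0.4738). Psmb9 did not pass in any comparison, with differences from WT between -0.11 and -0.04. The standard counterpart of Psmb10, Psmb7, was at -0.06 in D218Y, as given above.

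**Figure D5:**
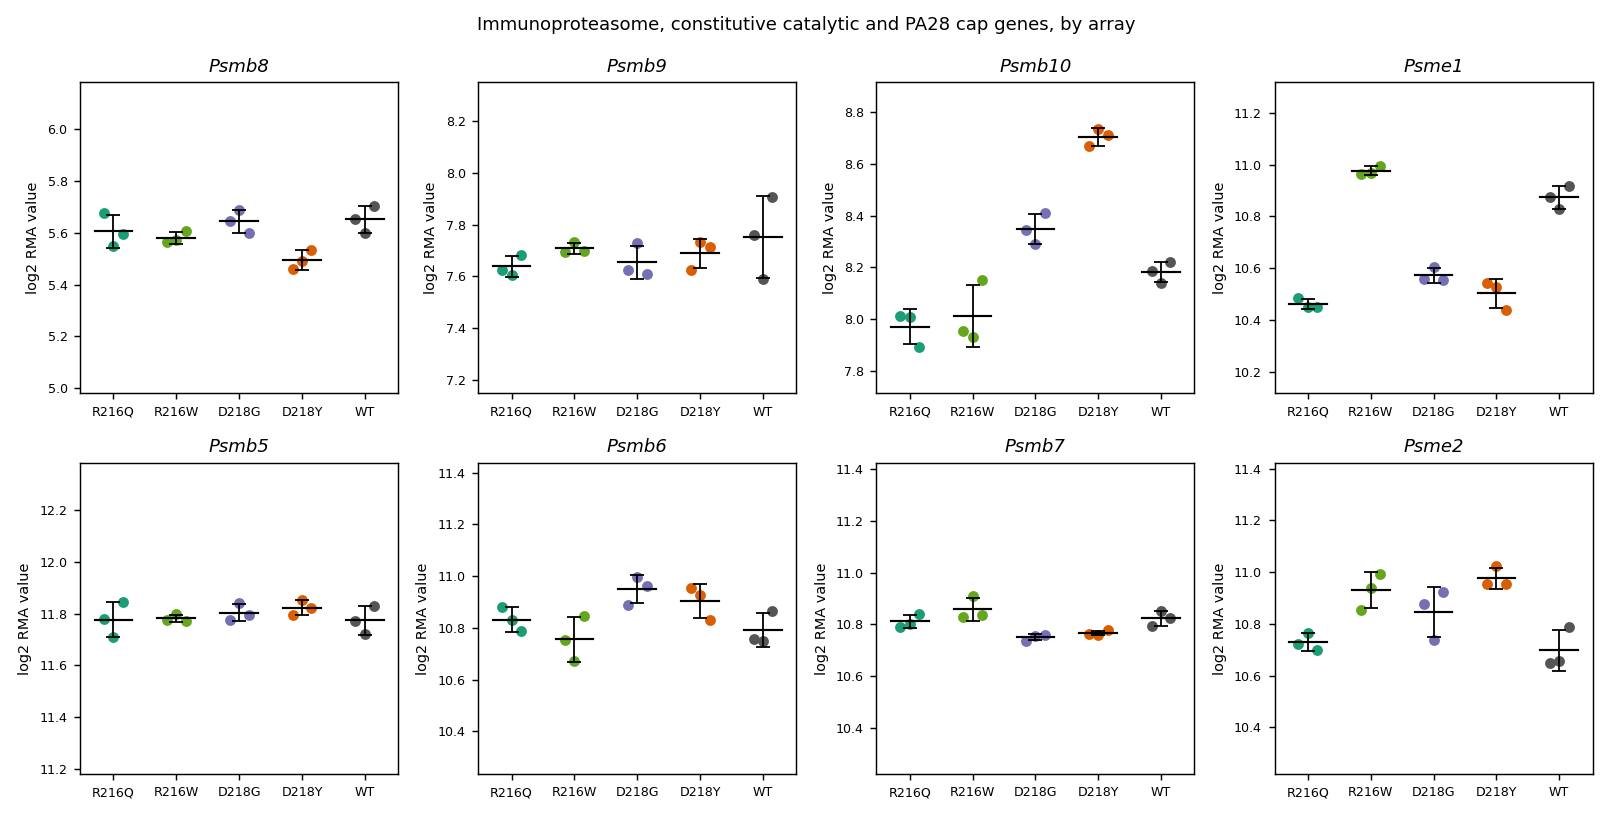
Log2 RMA values of the immunoproteasome genes and Psme1 (upper row) and of the standard catalytic genes and Psme2 (lower row) on each array (points), by line, with mean and SD in black; the vertical axes do not start at 0. Psmb10 is highest in D218Y and Psme1 is lower in R216Q, D218G and D218Y, while Psmb5, Psmb6 and Psmb7 did not pass against WT in any line.

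Of 13 other antigen presentation and interferon genes measured, 2 were bright genes. In D218Y 8 of the 13 fell and 1 rose (61.5% and 7.69%, against 24.2% and 20.3% of all genes). In R216Q 6 fell (46.2%, against 9.65% of all genes), in D218G 2 fell (15.4%, against 7.77%) and in R216W 1 fell (7.69%, against 7.23%, so near the share of all genes). The median difference was -0.20 in D218Y, against -0.07 over all genes. Irf9, part of the interferon response factor ISGF3, fell in D218Y (-0.99 ± 0.05), R216Q (-0.50 ± 0.05) and D218G (-0.43 ± 0.05) and was at -0.02 ± 0.05 in R216W. Tapbp, the peptide loading factor tapasin, fell in R216Q (-0.52 ± 0.05), D218Y (-0.25 ± 0.05), D218G (-0.23 ± 0.05) and R216W (-0.22 ± 0.05). B2m (-0.43 ± 0.04) and Stat2 (-0.41 ± 0.05) fell in D218Y, and Tap1, the peptide transporter, was the gene that rose there (0.15 ± 0.04). In R216Q Stat2 (-0.19 ± 0.05, adjusted p = 0.0121) and Tap1 (-0.17 ± 0.04, adjusted p = 0.0088) both fell. Their part in the Psme1 difference was not tested.

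The 13 measured partners and controllers of the proteasome were all bright genes. The share of them called was close to that of all genes in R216Q and below it in R216W. In each line the shares that rose and fell were below those of the bright genes. In D218Y 23.1% rose and 30.8% fell, against 39% and 35.5% of the bright genes. In R216Q 15.4% and 7.69% did, against 26.2% and 24.4%, and in D218G 7.69% and 15.4%, against 21.4% and 19.9%. In R216W 7.69% rose and 0% fell, against 19.8% and 18.6%. In D218Y 3 rose and 4 fell (53.8% called, against 44.4% of all genes), in D218G 1 rose and 2 fell (23.1%, against 18.1%), in R216Q 2 rose and 1 fell (23.1%, against 21.5%), and in R216W 1 rose (7.69%, against 16.6%). Uchl5, a deubiquitinase of the 19S cap, rose in D218Y (0.41 ± 0.05), D218G (0.17 ± 0.05, adjusted p = 0.0212) and R216Q (0.16 ± 0.05, adjusted p = 0.0232). Nfe2l1, the factor that raises proteasome genes when degradation is impaired, rose in D218Y (0.28 ± 0.06, adjusted p = 0.0021) and R216Q (0.19 ± 0.06, adjusted p = 0.0449). Pomp, which helps the barrel mature, rose in D218Y (0.15 ± 0.04). Zfand5 (-0.43 ± 0.05), an activator of the particle, and Akirin2 (-0.40 ± 0.04), which carries it into the nucleus, fell in D218Y. Akirin2 also fell in R216Q (-0.19 ± 0.04, adjusted p = 0.0028) and D218G (-0.16 ± 0.04, adjusted p = 0.0102). Ecpas, a scaffold that binds barrel and cap, rose in R216W (0.27 ± 0.04) and fell in D218Y (-0.22 ± 0.04) and D218G (-0.17 ± 0.04).

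Of 11 measured genes of ubiquitin supply and delivery, 9 of them bright genes, 6 rose and 2 fell in D218Y (54.5% and 18.2%, against 20.3% and 24.2% of all genes and 39% and 35.5% of the bright genes). In D218G 4 rose (36.4%, against 10.3% of all genes and 21.4% of the bright genes), and in R216W 3 rose (27.3%, against 9.36% and 19.8%). In R216Q 3 rose and 1 fell (27.3% and 9.09%, against 11.8% and 9.65% of all genes and 26.2% and 24.4% of the bright genes). Uba6, a ubiquitin-activating enzyme, rose in D218Y (0.76 ± 0.06), R216W (0.49 ± 0.06) and R216Q (0.38 ± 0.06). Rad23b, a shuttle that carries ubiquitinated proteins to the cap, rose in D218Y (0.55 ± 0.04), R216Q (0.26 ± 0.04), R216W (0.24 ± 0.04) and D218G (0.18 ± 0.04). Ubqln4, another shuttle, rose in D218Y (0.68 ± 0.06) and D218G (0.27 ± 0.06). Nsfl1c, a cofactor of the segregase Vcp, rose in D218Y (0.65 ± 0.06), R216Q (0.29 ± 0.06) and D218G (0.26 ± 0.06), and Vcp itself was at -0.02 in D218Y.

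The tissue-restricted subunits were without calls. Psma8, the alpha subunit of the testis, and Psmb11, the catalytic subunit of the thymus, lay in the lower part of the array range, at means of 4.85 and 5.74, and neither passed in any comparison. Of the other members that are no subunits, Psmc3ip rose in D218G (0.24 ± 0.07, adjusted p = 0.0293) and D218Y (0.21 ± 0.07, adjusted p = 0.0251). These calls were lost without WT replicate 3, among others (adjusted p from 0.0537 to 0.1058 in D218G and from 0.0913 to 0.0932 in D218Y), and in D218Y also after quantile normalization (adjusted p = 0.5131). Psme3ip1 did not pass against WT in any line, and its call in D218Y against D218G (0.11 ± 0.04, adjusted p = 0.0421) was lost whichever array of those lines was left out (adjusted p from 0.0501 to 0.1305).

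By limma's F test, 36 of the 50 members differed among the 5 lines, or 72%, against 41.9% of all genes. Among the bright genes, which hold 41 of the members, 84.3% passed. The members with the largest F statistics were Psmf1, Psme4, Psmg1, Psme1, Psmd9 and Psmb10, an inhibitor, caps, chaperones and an exchangeable subunit, and the first core subunit was Psmd3. Of the 31 core genes, all bright, 22 passed (71%), a share below that of the bright genes. The 9 that did not pass were Psma1 of the alpha ring, Psmb1, Psmb4, Psmb5 and Psmb7 of the beta ring, and Psmc6, Psmd1, Psmd8 and Psmd14 of the cap. Psmb4 (F test adjusted p = 0.0761) and Psmd8 (0.067) are thus called in D218Y against WT but not across the 5 lines.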

How the data were processed

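Total RNA was measured on Affymetrix mouse arrays, and groups and replicate numbers came from the titles in the labels. The authors deposited a log2 value for each probe set on each array, and RMA and Partek 6.6 are named in the submitters' processing notes, without settings. RMA makes array distributions alike and compresses changes of dim genes. The values were used unchanged, with no filter. Precision rests on 3 arrays a line.

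Of 28350 probe sets 21780 had 1 symbol in the platform annotation. The probe set with the highest mean was taken per gene, giving 19933 genes. The model was limma's (version 3.58.1, R 4.3.3), with a mean for each line, all 15 arrays and eBayes without trend, with Benjamini-Hochberg adjustment over all genes within a comparison, two-sided, called at an adjusted p under 0.05. Rose and fell mean calls. Errors after ± are moderated standard errors unless given as SD, and intervals are 95% intervals of the moderated fit, unadjusted. Replicates are labelled biological, with no more said of their source, so the p-values reflect only how much these samples vary, which may be technical. The model was tested on simulated data with differences planted in D218Y against WT. It recovered 2% of those of 0.1 (log2), 54% of those of 0.25 and 96% of those of 0.5. Small differences can thus be missed, and a gene that did not pass may still differ.

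Members and lists were chosen with earlier results of these data known. Genes named are the immunoproteasome, PA28, catalytic, chaperone and inhibitor genes and the 4 largest rises and falls per comparison, and other core genes were chosen after their values were seen. Pathway lists were fixed by name; 3 of 16 partner, 5 of 16 ubiquitin and 3 of 16 antigen presentation genes had no probe set with 1 symbol and are not analysed here. Protein sequences were not used here. Alternatives were 2 further normalizations, bright genes alone, the arrays of the compared lines alone, eBayes with trend and robust, an adjusted p under 0.01, the replicate number as a block, averaging the probe sets of a gene, and each array left out. These alternatives were read for the 50 members only, so the calls of single genes of the pathway lists were not checked under them. The comparison with the 4984 brightest genes was added after seeing the data.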

Additional observations from a re-analysis of the deposited data

How the results depend on the processing

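The count of members called was 13 in R216Q, 11 in R216W, 12 in D218G and 33 in D218Y against WT, 10 in R216W against R216Q and 27 in D218Y against D218G. In R216W, where 6 rose and 5 fell, the balance turned with 7 called when the arrays of these lines alone were fitted, 5 at an adjusted p under 0.01 and 9 with the replicate block, and the cause was not tested. Among genes above the median intensity, which leaves fewer genes to adjust over, the count was 18 in R216W and 19 in D218G, and with trend and robust moderation 17 and 19. At an adjusted p under 0.01 it was 6 in R216W against R216Q and 17 in D218Y against D218G. With single arrays left out the counts ran from 10 to 12 in R216Q, 6 to 8 in R216W, 10 to 14 in D218G, 29 to 34 in D218Y, 6 to 9 in R216W against R216Q, and 20 to 31 in D218Y against D218G, the highest without replicate 3 of D218G. The count of 6 in R216W came without WT replicate 1, and the count of 6 in R216W against R216Q without R216Q replicate 1. Apart from the stricter threshold, 28 of the 33 calls in D218Y, 9 of 13 in R216Q, 8 of 12 in D218G and 5 of 11 in R216W held under each alternative that tested the gene. Correlations between deviations of same-numbered arrays ran from -0.499 to 0.407. With 3 arrays a line, these cannot settle whether same-numbered samples share more than a number, and the labels do not say. With the replicate block the counts were 12 in R216Q, 10 in D218G and 33 in D218Y. They were 8 in R216W against R216Q and 25 in D218Y against D218G, and 31 members passed the F test.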
